A study of Homo sapiens with 2 samples.

Results

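The FGF receptor genes FGFR1, FGFR2, FGFR3, FGFR4 and FGFRL1, the ligand gene FGF2 and the adaptor gene FRS2 were followed in A549 cells, a human lung adenocarcinoma line, between monolayer and spheroid culture. Members were taken by symbol, as every probe set that the platform annotation gives to 1 of these 7 genes. 28 probe sets were found for 6 of the genes, out of 41097 probe sets annotated with a single gene and 19775 genes in all, and FRS2 had no probe set named here. The monolayer group was A549 grown attached in DMEM with 10% FBS and harvested at day 12. The spheroid group was A549 kept in suspension in DMEM/F12 without serum, to which N2, bFGF at 10 ng/ml and human recombinant EGF at 20 ng/ml were added, also harvested at day 12. Attachment, base medium, serum, supplement and both growth factors therefore differ together and cannot be told apart. Each culture gave total RNA for 1 Affymetrix Human U133 plus 2.0 array, so no difference between the cultures has a replicate check, no test was run and no p-value is given.

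FGF receptors are receptor tyrosine kinases that bind fibroblast growth factors together with heparan sulfate chains on the cell surface. Ligand binding pairs the receptors, the docking protein FRS2 is phosphorylated on their inner side, and GRB2 and PTPN11 carry the signal on to RAS and ERK, which in turn switches on feedback inhibitors of the Sprouty and DUSP families. FGFRL1 binds FGFs but lacks the kinase domain. bFGF is the protein product of FGF2, and FGF signals of this family guide lung branching and help to keep epithelial and stem cell cultures growing in serum-free medium.

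A signal here is the deposited intensity of a probe set on a linear scale, already scaled by the authors to a mean of 499.9 per array once the lowest and highest 2% are left out. Signals at or under the array's median, 108 in monolayer and 119 in spheroid culture, were treated as background (the floor). Where only 1 culture exceeded its floor the ratio is a lower bound ("at least"), and where neither did, no ratio is given. The value of a gene is that of its brightest probe set by mean log2 signal. Log2 ratios of spheroid over monolayer had a robust SD of 0.53 over 11528 genes above the floor on both arrays, and the difference in log2 ratio between the brightest pair of probe sets had an SD of 0.55 in 6346 genes. These are spreads between genes and between probe sets, not between cultures. In such bulk RNA, fewer cells of a type and less RNA per cell cannot be told apart. For both samples the free text in the labels speaks of hepatoma cells given a compound, which goes against their titles and cell line label. Of 15 markers of A549 and its epithelial type, 13 were above the floor, with AKR1B10 at 54097 and 69583 and ALDH1A1 at 54018 and 44858, while GPX2 was 5.71-fold higher, KRT19 4.64-fold higher and KRT7 3.75-fold lower in spheroid culture. KRT7 was within 3-fold with its probe sets averaged on the log scale (-1.01) or without those ending in _s_at or _x_at (-0.11). With the floor at the 75th percentile, which exceeded its monolayer signal, KRT19 had only a bound (log2 ratio at least 0.90). Above the floor were 2 of 10 fibroblast, 3 of 10 endothelial, 3 of 8 leukocyte and 10 of 13 hepatocyte markers. CD14, a monocyte receptor, was at least 3.66-fold lower, and no other fibroblast, endothelial or leukocyte marker was past 3-fold. The brightest of these were COL1A1 at 852 and 618, DCN at 209 and 132, EGFL7 at 745 and 576, PECAM1 at 270 and 475, and ITGAM at 198 and 182. Summed signals in monolayer and spheroid culture were 1456 and 1194 for fibroblast, 1351 and 1428 for endothelial and 1041 and 748 for leukocyte markers.

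The FGF receptors went in opposite directions in A549 spheroids: FGFR1 had lower signals and FGFR4 and FGFRL1 higher ones, FGFR3 and FGF2 read close to their monolayer level on their brightest probe sets, and FGFR2 lay at or near the floor. None of the 6 measured members was at least 3-fold higher or lower, where 2.37% of 13048 genes above the floor were higher by 3-fold or more and 2.14% were lower by as much. At 2-fold, 1 of 6 members, FGFR4, was higher, against 6.96% of all genes, and 1, FGFR1, was lower, against 5.58%. Of the 16 member probe sets above the floor, 2 were higher by 2-fold or more and 1 was lower by as much, while over 24220 probe sets these shares were 6.56% and 5.01%. The log2 ratio of FGFR4 exceeded that of FGFR1, the member at the other end, by 2.43. With the probe sets of each gene averaged on the log scale these ratios were 0.87 and -0.42, which lie closer together, and the probe sets of FGFR1 alone spanned at least 1.83.

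**Figure D1:**
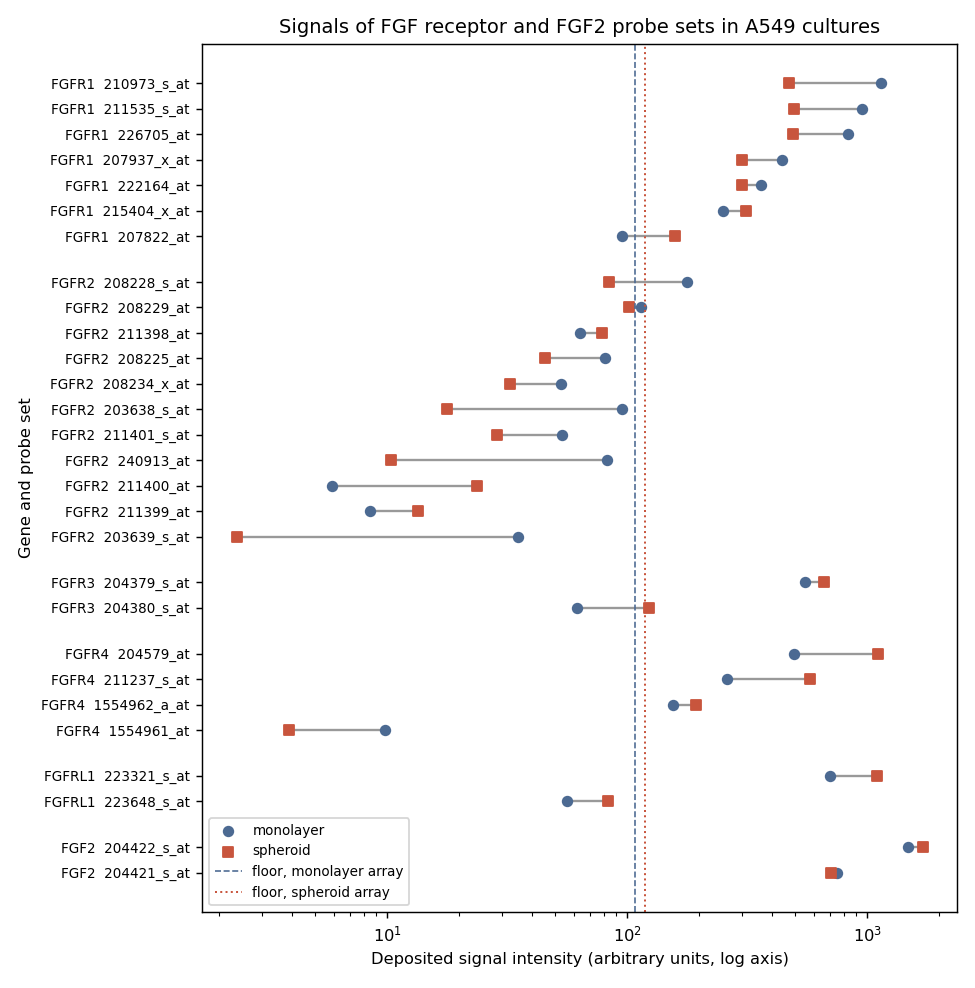
Deposited signal (log axis) of each of the 28 probe sets of FGFR1, FGFR2, FGFR3, FGFR4, FGFRL1 and FGF2 in monolayer (circles) and spheroid culture (squares), joined by a line, with the floor of each array as a vertical line. The 5 brightest FGFR1 probe sets are lower and the 3 FGFR4 probe sets above the floor are higher in spheroid culture, and nearly all FGFR2 probe sets lie under the floors.

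FGFR1, a receptor typical of mesenchymal cells that binds FGF2, had 7 probe sets, all above the floor in at least 1 culture. The brightest, 210973_s_at, read 1146 in monolayer and 472 in spheroid culture, 2.43-fold lower, with a log2 ratio of -1.28. The next, 211535_s_at, read 954 and 494, and 226705_at read 832 and 491. The probe set 207937_x_at read 444 and 301, and 222164_at read 361 and 301. These 5 were lower in spheroid culture by 1.20-fold to 2.43-fold. The 2 dimmest went the other way, 215404_x_at reading 250.2 and 312, and 207822_at reading 95.2, under the floor, and 158. The log2 ratios of FGFR1 probe sets thus spanned at least 1.83, since 207822_at has only a bound (at least 0.55). With bounds taken as values throughout, the median span over the 41 genes with 7 probe sets above the floor was 1.06, and 12.2% of those genes had a span at least as wide. The mean over all 7 FGFR1 probe sets, taken the same way, was a log2 ratio of -0.42. Probe sets ending in _s_at or _x_at can match several transcripts, and with these left out FGFR1 was read from 226705_at, at -0.76. Of all genes above the floor, 3.43% had a log2 ratio as low as the FGFR1 value of -1.28 or lower.

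FGFR4, the receptor known for its part in liver bile acid control, where it pairs with the coreceptor KLB to receive FGF19, had higher signals in spheroid culture. Its brightest probe set, 204579_at, read 497 in monolayer and 1105 in spheroid culture, a 2.22-fold higher signal with a log2 ratio of 1.15. A second, 211237_s_at, read 262 and 579, 2.21-fold higher. Of the dimmer pair, 1554962_a_at read 155 and 194, and 1554961_at read 9.80 and 3.88, under both floors. All 3 FGFR4 probe sets that exceeded the floor were thus higher, and 5.20% of all genes above the floor had a log2 ratio as high as that of FGFR4 or higher. KLB read 116 and 83.9 on its brighter probe set, within the floors, which gives no ratio, and FGF19 read under the floor in both cultures.

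Since FGFR4 has a known part in the liver and the sample description names a hepatoma line, markers of liver cells are given beside it. Of 13 measured hepatocyte markers, 7 were higher in spheroid culture, 3 were lower and 3, GPC3, TTR and TF, were at the floor in both. ALB read 23.4 and 4639, at least 42.9-fold higher. SERPINA1 read 64.6 and 543, at least 5.02-fold higher, and AFP read 106 and 263, at least 2.43-fold higher. ALB and SERPINA1 were the 2 hepatocyte markers past 3-fold. That count was 0 without _s_at and _x_at endings, where SERPINA1 had a log2 ratio of 0.41 and ALB no value. It was 1 with the floor at the 75th percentile, where SERPINA1 had only a bound (at least 0.18). CPS1, a urea cycle enzyme, read 13236 and 9462, and FGG, a fibrinogen chain, read 1781 and 1297. The summed signal of the 13 markers was 17271 in monolayer and 18870 in spheroid culture. Most of the monolayer sum was CPS1, which was lower in spheroids, so the sums do not show how the other markers moved. The part of these liver markers in the FGFR4 value was not tested.

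The promoter windows of FGFR4 and FGFRL1, the members with the higher ratios, are shown with that of FGFBP1, the FGF carrier gene described further on. They come from RefSeq on GRCh38.p14, run from 250 bases before to 50 bases after an annotated start, and are written 5′ to 3′ on the strand of the gene. Capitals mark matches on either strand to the GC box GGGCGG or to the E-box CACGTG, which do not overlap here. FGFR4 has 2 annotated starts, and the arrays do not tell which was used.
FGFR4 first start, chr5:177086665-177086964, plus strand: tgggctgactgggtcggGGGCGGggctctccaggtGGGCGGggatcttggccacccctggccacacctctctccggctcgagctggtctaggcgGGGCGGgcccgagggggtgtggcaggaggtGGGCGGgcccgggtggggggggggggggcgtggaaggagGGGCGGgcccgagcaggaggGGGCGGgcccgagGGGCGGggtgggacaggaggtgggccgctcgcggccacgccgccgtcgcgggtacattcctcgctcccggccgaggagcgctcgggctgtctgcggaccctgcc
FGFR4 second start, chr5:177089300-177089599, plus strand: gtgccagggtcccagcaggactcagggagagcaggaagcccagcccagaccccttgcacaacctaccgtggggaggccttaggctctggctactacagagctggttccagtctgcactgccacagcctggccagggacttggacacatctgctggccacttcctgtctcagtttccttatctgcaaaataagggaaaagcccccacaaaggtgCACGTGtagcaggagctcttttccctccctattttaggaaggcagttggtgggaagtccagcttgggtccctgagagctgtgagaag
FGFRL1, chr4:1012214-1012513, plus strand: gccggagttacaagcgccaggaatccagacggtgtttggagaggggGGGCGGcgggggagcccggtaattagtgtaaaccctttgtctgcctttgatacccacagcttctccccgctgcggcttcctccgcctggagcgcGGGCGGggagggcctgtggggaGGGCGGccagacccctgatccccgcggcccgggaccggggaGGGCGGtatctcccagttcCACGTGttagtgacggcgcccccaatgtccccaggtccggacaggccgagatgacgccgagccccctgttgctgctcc
FGFBP1, chr4:15938691-15938990, minus strand: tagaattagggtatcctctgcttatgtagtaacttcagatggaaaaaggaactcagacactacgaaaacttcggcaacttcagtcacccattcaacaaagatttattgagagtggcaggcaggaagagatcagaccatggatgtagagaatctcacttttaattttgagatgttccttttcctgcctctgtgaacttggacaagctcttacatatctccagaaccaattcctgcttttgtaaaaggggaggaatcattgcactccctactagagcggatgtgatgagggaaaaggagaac
The first FGFR4 window held 7 GC boxes and was 78.7% G and C, and the FGFRL1 window held 4 GC boxes and 1 E-box at 68.3%. The second FGFR4 window held no GC box and 1 E-box at 57.3%, and the FGFBP1 window held neither at 42.0%. Among 35116 windows of this length, the median share of G and C was 58.7%, and 45.0% held a GC box and 7.26% an E-box. The AP-1 motif TGANTCA, present in 7.71% of windows, and the ETS motif CCGGAAGT, present in 4.14%, were found in none of the 4 windows. GC boxes were also found for FGFR3 (8), FGF2 (3) and 2 of the 5 windows of FGFR2 (5 and 1). No FGFR1 window was examined. A link between these motifs and the signals was not tested.

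FGFRL1, the receptor without a kinase domain, read 697 in monolayer and 1104 in spheroids on 223321_s_at, 1.58-fold higher, with a log2 ratio of 0.66. Its other probe set, 223648_s_at, read 56.0 and 83.4, under both floors. Of all genes above the floor, 14.3% had a log2 ratio as high as this or higher, and the value is little more than the spread of 0.55 between probe sets.

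FGFR3, a receptor of epithelia and cartilage, read 551 and 662 on 204379_s_at, 1.20-fold higher, with a log2 ratio of 0.27. Its second probe set, 204380_s_at, read 62.1, under the floor, and 124, at least 1.14-fold higher. Both went the same way. The brighter one differed by less than the spread between probe sets, while the other has only a bound, and 33.2% of all genes had a log2 ratio at least as high.

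FGFR2, the receptor through which mesenchymal FGF7 and FGF10 reach lung epithelium, was at or under the floor on nearly all of its 11 probe sets. Only 208228_s_at exceeded a floor by enough to give a bound, reading 178 in monolayer and 83.8 in spheroid culture, at least 1.49-fold lower. The 10 others lay between 5.92 and 114 in monolayer and between 2.36 and 102 in spheroid culture. Without a floor 8 of the 11 probe sets were lower in spheroid culture and 3 higher, at signals too dim to rank. ESRP1, the epithelial splicing factor that sets the epithelial isoform of FGFR2, read 30.3 and 35.9, also under both floors.

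FGF2, whose protein was added to the spheroid medium as recombinant bFGF, had RNA signals that stayed close between the cultures. The probe set 204422_s_at read 1473 in monolayer and 1711 in spheroids, 1.16-fold higher, and 204421_s_at read 747 and 709, 1.05-fold lower. The pair disagreed in direction, with log2 ratios of 0.22 and -0.07, both within the spread between probe sets. NUDT6, the gene that overlaps FGF2 on the other strand, was looked up after the values were seen and read 879 and 942 on its brighter probe set and 575 and 624 on the other.

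**Figure D2:**
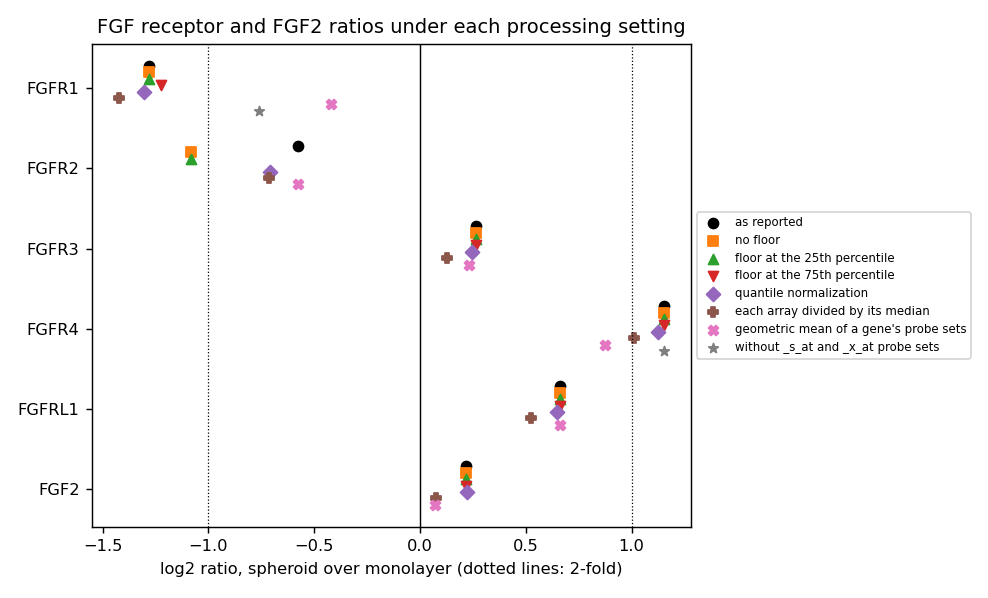
Log2 ratio of spheroid over monolayer signal of the 6 measured members as reported (black circles) and under 7 other processing settings, with dotted lines at 2-fold. Every setting that gave a value left FGFR1 and FGFR2 below 0 and FGFR3, FGFR4, FGFRL1 and FGF2 above it, with FGFR1 from -1.42 to -0.42 and FGFR4 from 0.87 to 1.15. Most settings read the same brightest probe set of a gene.

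Set among other receptor tyrosine kinases, the FGF receptors lay on both sides of the middle. 38 receptor genes were above the floor, the 5 FGF receptors, FGFRL1 included, and 33 others, whose log2 ratios ran from -1.80 to 2.30 against -1.28 to 1.15 for the FGF receptors. By measured value or bound, FGFR1 had rank 3 counted from the lowest and FGFR4 rank 4 counted from the highest. These ranks are not exact, since EPHB3, EPHA1, EPHA10 and ROS1 have only lower bounds under the value of FGFR4 (0.80, 0.56, 0.52 and 0.29), and without a floor all 4 were above it (2.09, 1.56, 1.26 and 1.67). The rank of FGFR1 also rests on its brightest probe set. With probe sets averaged on the log scale FGFR1 was at -0.42. That is above AXL (-1.05), IGF1R (-0.55) and MET (-0.47), which it lay below on the brightest probe sets. EPHA5 (-1.30), next to FGFR1, and ROR1 (1.16), next to FGFR4, differed from them by less than the spread between probe sets, while LMTK3, the other neighbour of FGFR1, had only a bound (at most -1.08). The 5 FGF receptors had a median log2 ratio of 0.27 and the 33 others -0.13, beside 0.03 for all genes. The first is the value of FGFR3 and the second a bound of STYK1, whose spheroid signal was at the floor. Both are within the spread between probe sets. Among the 33 others, 1 was past 3-fold in each direction. ERBB3, a partner receptor for neuregulin signals, read 423 and 2091, 4.94-fold higher. NTRK3, a neurotrophin receptor, read 2717 and 778, 3.49-fold lower, and the log2 ratio of -1.80 became -1.31, within 3-fold, when its probe sets were averaged on the log scale. MET, the receptor of hepatocyte growth factor, read 9819 and 6821, and IGF1R, the receptor of insulin-like growth factor, 5200 and 3491. EGFR, named because its ligand was in the spheroid medium, read 3003 and 3150 on its brightest probe set, and others of its probe sets went either way.

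**Figure D3:**
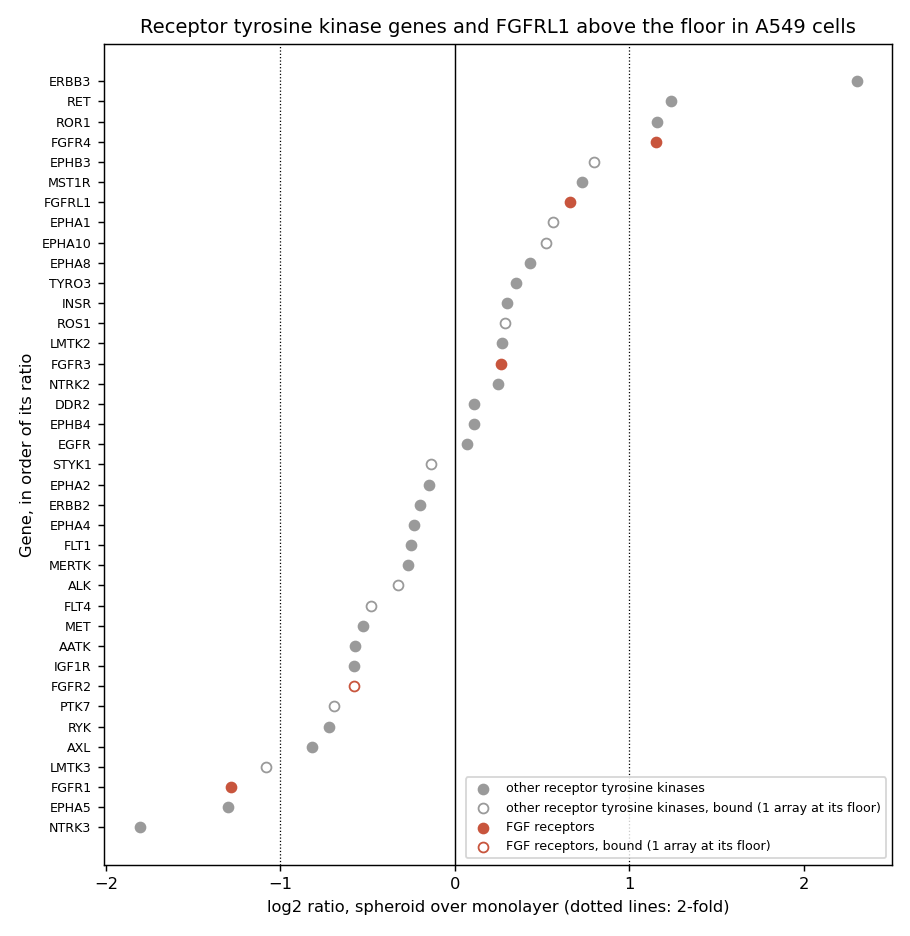
Log2 ratio (spheroid over monolayer) of the 38 genes above the floor, receptor tyrosine kinases and the kinase-lacking FGFRL1, in order of value or bound, with FGF receptors in red and others in grey, open circles for bounds and dotted lines at 2-fold. On their brightest probe sets, FGFR1 lies near the low end at -1.28 and FGFR4 near the high end at 1.15, with FGFR2, FGFR3 and FGFRL1 between.

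Ligands other than FGF2 were dim. Of 17 further FGF ligand genes 4 were above the floor, none of them past 3-fold, and 13 were at the floor, where signals lay between 5.76 and 67.3 in monolayer and between 6.97 and 114 in spheroid culture. FGF6 read 212 and 180 and FGF4 169 and 164, while FGF16, at 30.3 and 126, and FGF18, at 87.4 and 136, exceeded the floor in spheroid culture alone. Among the 4 intracellular FGF homologous factors, which bind sodium channels rather than receptors, FGF11 read 237 and 142 and the others were at the floor, FGF14 among them at 100.05 and 81.9.

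The highest ratio in the FGF pathway belonged to a carrier of FGFs. FGFBP1, a secreted protein that frees FGF2 and other FGFs from heparan sulfate of the matrix, read 119 in monolayer and 2284 in spheroids on the 1 probe set it has, a 19.2-fold higher signal. The monolayer value lay just above the floor of 108. When the floor was raised to the 75th percentile, the log2 ratio of 4.26 became a bound of at least 2.26, still past 3-fold. Of 7 klotho and FGF-binding genes, FGFBP1 alone was past 3-fold, 2 lay between and 4 were at or within the floors. FIBP, an intracellular FGF-binding protein, read 2701 and 2190.

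Heparan sulfate genes, which provide the coreceptor chains, went both ways. Of 14 carrier proteins 11 were above the floor and none was past 3-fold, with a median log2 ratio of -0.03. CD44, which can carry heparan sulfate in some splice forms, read 18391 and 31734, and SDC1, a syndecan, read 5172 and 4097. Of 23 measured enzymes of heparan sulfate 12 were above the floor, 1 of them at least 3-fold lower and none at least 3-fold higher, with a median of 0.08. HPSE, the heparanase that cuts the chains, read 406 and 107, at least 3.41-fold lower, and its second probe set read 155 and 14.6. With its probe sets averaged on the log scale (-1.07), or those ending in _s_at or _x_at left out (-0.38), the HPSE bound did not reach 3-fold. As spheroid signals of HPSE were at the floor, these bounds do not show a difference within 3-fold, and without a floor the log2 ratio was -1.93. EXT2, a chain polymerase, read 3251 and 3352, and HS2ST1, a sulfotransferase, 2781 and 2746. SULF2, which removes 6-O-sulfates, was named after its values were seen, at 982 and 2236, 2.28-fold higher.

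Adaptors and kinases downstream of the receptors were within 3-fold between the cultures where they were measured. All 15 measured adaptors, of 17 listed, were above the floor and within 3-fold, 11 of them higher and 4 lower, with a median log2 ratio of 0.18. The highest ratio was that of GRB14, which read 1578 and 3168, 2.01-fold higher. SHC1, an adaptor of receptor kinases, read 12673 and 15581, and PTPN11, the phosphatase docked by FRS2, read 6720 and 7634. All 9 measured genes of the RAS and ERK cascade were within 3-fold, with a median of 0.07, while 5 of the 14 listed had no probe set named here. MAP2K2, which phosphorylates ERK, read 3805 and 4211, and RPS6KA3, a kinase downstream of ERK, 3129 and 4569.

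Feedback inhibitors and genes co-expressed with FGF signalling had the highest median of the pathway lists. The part of bFGF, EGF or any other difference between the cultures in this was not tested. Of 15 genes 13 were above the floor, 4 at least 3-fold higher, none at least 3-fold lower and 9 between, with a median log2 ratio of 0.95. DUSP6, the ERK phosphatase, read 847 and 5261, and its 3 probe sets were 6.21-fold to 11.0-fold higher. SPRY4, a Sprouty inhibitor, read 346 and 1804, 5.21-fold higher. ETV1, an ETS factor, read 240 and 744, 3.10-fold higher, and SPRED3 read 146 and 448, 3.07-fold higher. FLRT3, a membrane protein that binds FGFR1, read 1835 and 4169. The list was not uniform in direction, as 11 of these 13 genes were higher in spheroid culture and 2 were lower. The lower pair were IL17RD, which read 382 and 235, and FLRT1, which read 252 and 167. With quantile normalization ETV1 (1.57) and SPRED3 (1.53) were within 3-fold, as they were after division of each array by its median (1.49 and 1.48). ETV1 moved further with its probe sets averaged (1.15). With the floor at the 75th percentile ETV1 had only a bound (at least 0.64) and SPRED3 gave no value.

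The remaining lists were those of splicing, surface partners and turnover of FGF receptors. Of 13 measured splicing factors 11 were above the floor, all within 3-fold, with a median log2 ratio of 0.04. PTBP1, a repressor of exon choice, read 7609 and 4268, and HNRNPH1, an RNA-binding splicing factor, 17900 and 18366. Of 14 surface partners 7 were above the floor, all within 3-fold, with a median of -0.01. CNTN1, a contactin, read 9517 and 5760, and its 4 probe sets were all lower, while NRCAM, a neural adhesion molecule, read 6277 and 6252. Of 16 trafficking and turnover genes 15 were above the floor, 1 at least 3-fold higher and none at least 3-fold lower, with a median of 0.04. EPS8, a substrate of receptor kinases, read 2161 and 7054, 3.26-fold higher, or a log2 ratio of 1.57, within 3-fold, after division of each array by its median. CLTC, the clathrin heavy chain, read 18082 and 21689, and RAB11A, a recycling GTPase, 9577 and 12305.

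Over all pathway genes outside the members, 98 of 143 measured were above the floor. Of these, 6 were higher by 3-fold or more and 1 lower by as much, where the shares over all 13048 genes were 2.37% and 2.14%. Of the 6, 4 belonged to the feedback list. The median log2 ratio of the 98 pathway genes was 0.11, beside 0.03 for all genes. After division of each array by its median these became -0.034 and -0.10, so the sign of the pathway median depends on the scaling.

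**Figure D4:**
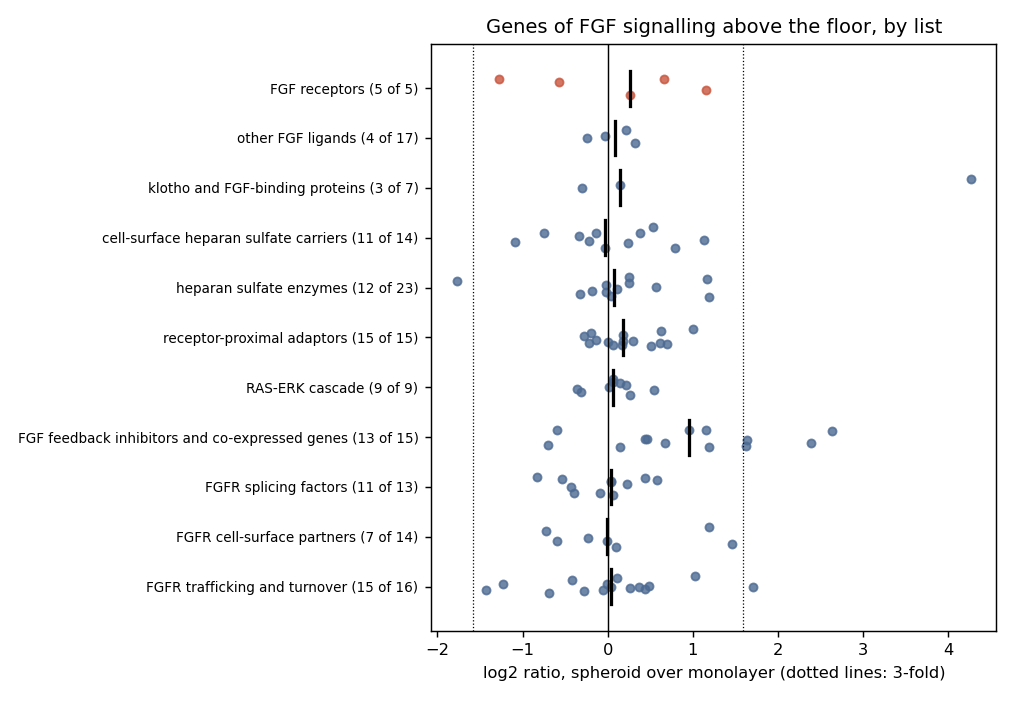
Log2 ratio (spheroid over monolayer) of each gene above the floor, by list, with the number above the floor and the number measured in brackets, the list median as a bar and dotted lines at 3-fold. FGFBP1 stands apart at 4.26, the feedback list has its median at 0.95, and the medians of the other lists plotted lie between -0.03 and 0.27.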

How the data were processed

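RNA of A549 cells, 1 monolayer and 1 spheroid culture, was measured on 1 array per culture, mapped by sample title. The authors deposited a signal intensity per probe set on a linear scale. MAS5 and GCOS are the tools listed in the submitters' processing notes, whose versions are not given in the sources used here. The methods also state GeneSpring GX for later analysis. Among 54675 probe sets, the platform annotation gave 41097 a single gene, 1801 several genes and 11777 no gene. Symbols were updated by Entrez identifier to RefSeq (GRCh38.p14) for 41043 of them. FRS2 was not analysed here.

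Values under each array's 50th percentile, taken over probe sets other than 62 control probe sets, were raised to it and log2 ratios taken without further scaling, with Python (3.11.15), numpy (2.4.6) and pandas (2.3.3), and figures drawn with matplotlib (3.10.9). A gene counted as above the floor where a ratio or a bound over 1-fold could be given. Limits were 3-fold and 2-fold, with 5-fold as an alternative. The ratio step was tested on simulated data. The changes put in were larger than those of the members and lay in genes brighter than most members. That test therefore says nothing about smaller changes or dim signals. Members and lists were chosen with earlier results of these data known. Named are all members and, of each list, up to 5 genes per direction past 3-fold and the 2 with the highest mean signal. Any other gene is named to complete a pair or count, or after its values were seen. Precision is limited by having 1 array per culture.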

Additional observations from a re-analysis of the deposited data

How the results depend on the processing

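With 1 array per culture no replicate could be left out. No paired analysis was possible because each culture has a single sample. Directions of the 6 measured members were kept under all settings that gave a value, and the log2 ratio of FGFR1 moved to -0.42 when all of its probe sets were averaged on the log scale. Most settings read the same brightest probe set of a gene, so the kept directions say little about its other probe sets. The second FGF2 probe set went the other way (-0.07), as did the 2 dimmest of FGFR1. FGFR2 was at the floor with the floor at the 75th percentile and gave no value when probe sets ending in _s_at or _x_at were left out, which also left FGFR3, FGFRL1 and FGF2 without a probe set or a ratio. A limit of 2-fold gave 1 member higher and 1 lower in place of 0 and 0. Of pathway genes outside the members, 6 were at least 3-fold higher as reported, 10 with no floor, 3 with each array divided by its median, 14 at a limit of 2-fold and 3 at 5-fold. The 1 gene at least 3-fold lower became 4 with no floor, 2 with the floor at the 25th percentile, 4 at a limit of 2-fold and 0 for a floor at the 75th percentile, for the log-scale average, for probe sets without those endings and at 5-fold. The pathway median of 0.11 reversed to -0.034 after division of each array by its median, a setting that moved the median of all genes from 0.03 to -0.10. The cause of these moves was not tested beyond what each setting changes by construction. Dim probe sets, FGFR2 and most FGF ligands among them, lie too near the background for a ratio.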

Other observations

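Outside the FGF receptors, the neurotrophin receptor gene NTRK3 had 9 probe sets above the floor, and all 9 were lower in spheroid culture, by 1.55-fold to 3.61-fold. NEDD4L, a ubiquitin ligase of membrane channels that was named after its values were seen, read 1068 in monolayer and 397 in spheroid culture, 2.69-fold lower, with the same direction on each of 4 probe sets above the floor. ERBB3 had 3 probe sets above the floor, all higher in spheroid culture, by 1.54-fold to 4.94-fold. Each value comes from 1 array per culture.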
